A study of Mus musculus with 14 samples.

Results

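Tomm40l encodes a paralogue of Tomm40, the protein that forms the channel through which most nuclear-encoded mitochondrial proteins cross the outer membrane. It is described here with 9 other genes of that import route, Tomm40, Tomm20, Tomm22, Tomm70a, Tomm7, Tomm5, Tomm34, Timm23 and Timm50, taken by symbol from 23337 genes counted in each library, and all 10 were found. Tomm40l was selected on its measured level, which differed between genotypes in opposite directions in striatum and cerebellum, so its genotype differences are given as values without a test. The other 9 were listed for their function, with earlier results of these data known. RNA was sequenced from dissected striatum and cerebellum of C57Bl/6 mice aged 6 months. There were 3 wildtype (WT) and 3 Thap1 conditional knockout (cKO) striatal samples, and 4 WT and 4 cKO cerebellar samples, the WT mice being littermates of the cKO mice. THAP1 is a zinc-finger transcription factor mutated in the dystonia DYT6. The sources used here do not give the driver that deletes Thap1, the cells in which it acts, the deleted part of the gene or whether the WT mice carry unrecombined alleles. They also do not tie each replicate to its own animal, so the p-values measure spread among samples that may be technical.

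Proteins destined for mitochondria are made in the cytosol and first meet the translocase of the outer membrane (TOM). Its receptors, TOM20 and TOM70, read the targeting signals, TOM22 organises the complex and passes precursors on, TOM40 forms the pore, and the small subunits TOM5, TOM6 and TOM7 help to assemble and steady it. Precursors with a cleavable signal then cross the inner membrane through TIM23, to which TIM50 hands them, and are pulled in by the matrix chaperone that Hspa9 encodes. Neurons rely on this route to supply mitochondria along long axons.

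The paralogues are distinct enough for short reads to separate them. The coding sequence of Tomm40l had 927 bases for 308 residues and that of Tomm40 had 1086 bases for 361 residues, and they were identical at 70.1% of 926 aligned bases (GENCODE vM21, GRCm38). Their longest shared run was 17 bases, and no stretch of 50 bases was common to their transcripts. The closest stretch of 60 bases is printed 5′ to 3′ on the coding strand to show how far even the most alike segments differ, with the 11 differing bases in capitals and the 49 identical bases in lower case. It lies in coding bases 258 to 317 of Tomm40l, in exons 4 and 5, whose genomic span with the intron is chr1:171220866-171221186 on the minus strand. In Tomm40 it lies in coding bases 417 to 476, also in exons 4 and 5, spanning chr7:19710979-19713687 on the minus strand.
Tomm40l: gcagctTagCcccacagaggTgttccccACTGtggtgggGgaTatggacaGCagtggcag
Tomm40: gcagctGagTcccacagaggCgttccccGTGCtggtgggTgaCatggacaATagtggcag

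Other features of the annotation bear on how well each gene could be counted. Tomm40l (chr1:171216011-171222514, minus strand) shares 3304 exon bases, 64.3% of its exons, with Nr1i3, a nuclear receptor gene on the opposite strand. The window printed above lies outside Nr1i3. The strand setting of the counting is not given in the sources used here, so whether reads from the shared exons were separated by strand is unknown. Nr1i3 itself had at most 0.632 CPM in any library, CPM being counts per 1000000, scaled by TMM factors over all 14 libraries. How reads from the shared exons were assigned is not known, so this level may leave them out. Of the 50-base stretches of Timm23 transcripts, 57.5% also occur in 46 other annotated genes, so its counts are uncertain. For Tomm40l that share was 56.3%, with Nr1i3 as the only other gene. For each of the remaining 8 members it was at most 6.24%. Tomm40 (chr7:19701313-19715438, minus strand) shares 258 exon bases with the antisense gene Gm20512.

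The receptor genes are Tomm20 (chr8:126930667-126945844, minus strand) and Tomm70a (chr16:57121703-57156705, plus strand), and the organiser is Tomm22 (chr15:79670861-79673400, plus strand). The small subunits are Tomm7 (chr5:23838944-23844161, minus strand) and Tomm5 (chr4:45105208-45108114, minus strand), and the cochaperone is Tomm34 (chr2:164053540-164071169, minus strand). The inner membrane genes are Timm23 (chr14:32180162-32201898, minus strand) and Timm50 (chr7:28305516-28312072, minus strand).

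The libraries held 12595941 to 14258141 counts in striatum and 19458954 to 28099205 in cerebellum, and the precision of the low genes follows from that. Tomm5 had 35 to 83 counts in a striatal library and Timm23 had 28 to 43, against 279 to 912 for Tomm40l. Summed levels of 10 striatal neuron markers were 9737 to 12005 CPM in striatum and 338 to 411 CPM in cerebellum, and those of 10 cerebellar neuron markers were 13506 to 14472 CPM in cerebellum and 1808 to 2453 CPM in striatum. Thap1 stood at 13.99 to 16.4 CPM in WT striatum and 4.02 to 8.14 CPM in cKO striatum, a log2 fold change of −1.36 ± 0.23 (SE, edgeR adjusted p = 0.0562), which passed without WT replicate 1 (−1.41, adjusted p = 0.0248). In cerebellum it stood at 7.81 to 10.05 CPM in WT against 6.51 to 7.39 CPM in cKO (−0.34 ± 0.10, edgeR adjusted p = 0.0488), and this call was lost under 11 of the alternatives run (adjusted p up to 0.353). Striatal WT replicate 1 stood apart from the other WT striatal libraries, with chi-square values per degree of freedom of 28.6 and 28.2 against them, where they gave 6.79 between themselves. It had the lowest of the 6 striatal values for 34.4% of 14080 genes tested, for 7 of the 10 members and for 26 of 32 other import genes. Striatal log2 fold changes are therefore given with and without it.

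Tomm40l, the gene encoding the channel paralogue, was at 54.7, 71.9 and 68.8 CPM in the 3 WT striatal libraries and at 22.96, 26.3 and 23.4 CPM in the 3 cKO libraries. Every cKO library was below every WT library. The cKO mean was 37.2% of the WT mean, a log2 fold change of −1.43 ± 0.13 (SE), and −1.54 ± 0.086 without WT replicate 1. In cerebellum it was at 55.3, 61.1, 62.2 and 58.0 CPM in WT and at 71.7, 73.2, 74.3 and 77.9 CPM in cKO. Here every cKO library was above every WT library. The cKO mean was 126% of the WT mean, a log2 fold change of 0.34 ± 0.044. The cerebellar change minus the striatal change was 1.76 ± 0.12.

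**Figure D1:**
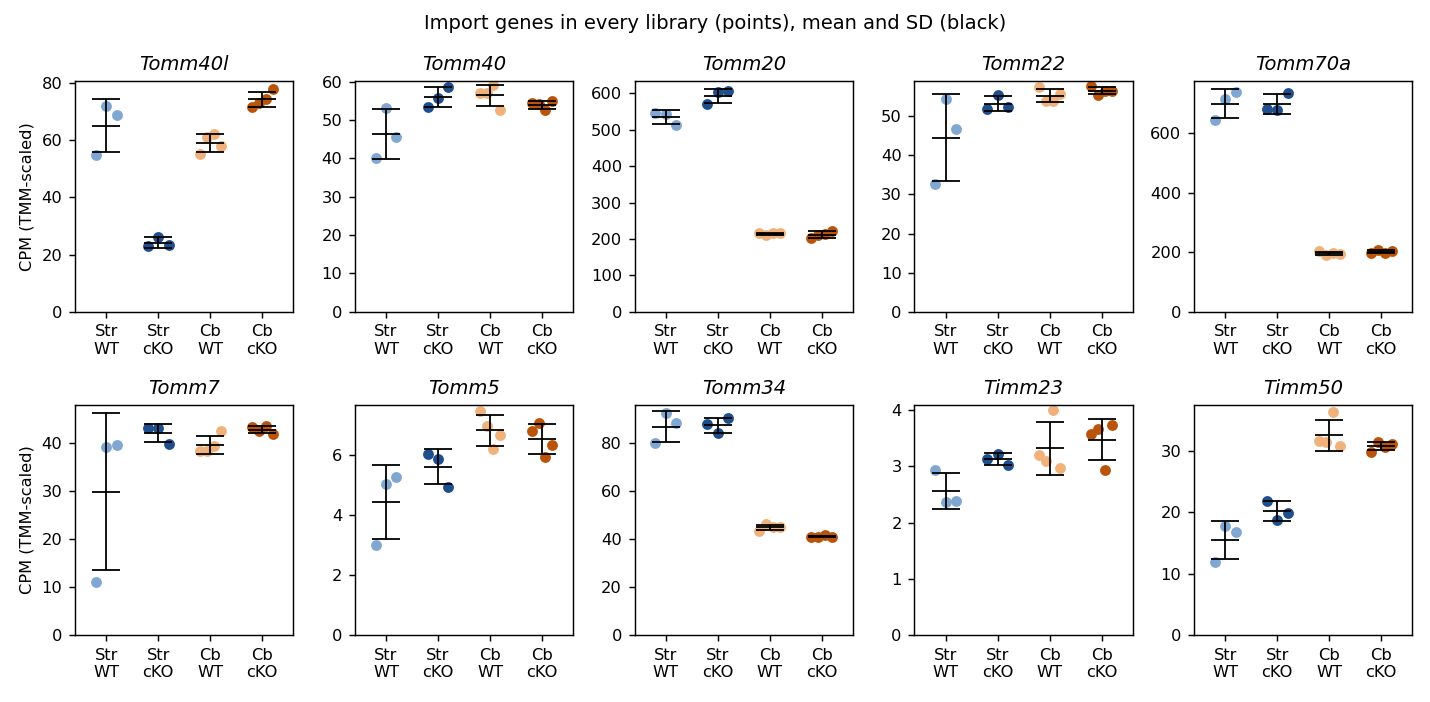
Levels of the 10 genes in CPM (y axis, from 0) in each of the 14 libraries (points), by tissue and genotype (Str, striatum; Cb, cerebellum), with the group mean and SD in black. Tomm40l is lowest in the 3 cKO striatal libraries (22.96 to 26.3 CPM) and highest in the 4 cKO cerebellar libraries (71.7 to 77.9 CPM), and striatal WT replicate 1, the leftmost WT point, is low for Tomm22, Tomm7 and Timm50.

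Myelin markers moved with genotype in the same libraries. Their summed level, over 15 genes of which none was at 0, was 8553 to 10462 CPM in WT striatum and 5505 to 6793 CPM in cKO striatum, and 5607 to 6178 against 4892 to 5426 CPM in cerebellum. In striatum 6 of the 15 fell (edgeR, adjusted p under 0.05), where 0.384% of all genes were called. That count was 9 without WT replicate 1, 1 without WT replicate 3, 2 without cKO replicate 2, 0 without cKO replicate 1 or 3, 1 with the replicate block, 14 with DESeq2 and 15 with limma-voom. In cerebellum 9 of the 15 fell, where 7.59% of all genes were called, with 6 to 12 when 1 library was left out and 2 in 1 model of all libraries. The striatal and cerebellar log2 fold changes of all 15 were negative. The myelin sum was lower in cKO in both tissues. Choroid plexus markers, summed over 7 genes of which none was at 0, ran from 42.1 to 2137 CPM in WT cerebellum and from 718 to 3459 CPM in cKO cerebellum. In striatum they ran from 37.9 to 56.3 CPM in WT and from 52.0 to 205 CPM in cKO. Of 10 astrocyte markers, 5 were called in cerebellum (edgeR, 3 higher and 2 lower), where 7.59% of all genes were called, and 0 in striatum. Their sum was 6404 to 6784 CPM in WT cerebellum and 6338 to 7026 CPM in cKO cerebellum. Of 10 cerebellar neuron markers, 2 were called in cerebellum, 1 higher and 1 lower. In striatum their sum was 2138 to 2453 CPM in WT and 1808 to 2029 CPM in cKO, without overlap. There 3 of the 10 were at 0 in WT and 2 in cKO, and edgeR called 0 of the 5 tested. The part of any of these cell types in the values of Tomm40l was not tested. In dissected tissue, fewer cells of a type and less RNA per cell cannot be told apart.

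Tomm40 encodes the main pore and showed no such reversal that passed a test. It was at 40.2, 53.2 and 45.5 CPM in WT striatum and at 53.5, 55.8 and 58.6 CPM in cKO striatum. The cKO values were all above the WT values, with the highest WT library close to the lowest cKO library. The log2 fold change was 0.27 ± 0.12 (edgeR adjusted p = 0.682), and 0.18 ± 0.090 without WT replicate 1. In cerebellum Tomm40 was at 57.0, 57.2, 59.1 and 52.7 CPM in WT and at 54.6, 54.1, 52.5 and 54.9 CPM in cKO, and the genotypes overlapped (−0.05 ± 0.043, edgeR adjusted p = 0.533). The tissues' changes in Tomm40 differed by −0.34 ± 0.11, cerebellar minus striatal, which did not pass after adjustment (edgeR adjusted p = 0.234). Without striatal WT replicate 2 that difference was −0.45 and passed (adjusted p = 0.0343). It ran from −0.45 to −0.24 when 1 library was left out at a time. Without striatal WT replicate 1, in which Tomm40 was lowest in WT striatum, edgeR called 0 of the 9 members other than Tomm40l for this difference.

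Set against each other per kb of exon, the paralogues changed rank with genotype in both tissues. Tomm40l made up 55.3 ± 1.56% of their summed level in WT striatum (SD, n = 3) and 27.5 ± 1.67% in cKO striatum (SD, n = 3). In cerebellum it made up 47.9 ± 1.37% in WT and 54.7 ± 0.923% in cKO (SD, n = 4 each). The sum was 22.9 ± 3.15 CPM per kb in WT striatum and 17.1 ± 0.689 in cKO striatum, with the lowest WT library at 19.5 and the highest cKO library at 17.5. It was 24.04 ± 1.04 in WT cerebellum and 26.4 ± 0.614 in cKO cerebellum, with no overlap between genotypes. Tomm40l enters these shares and sums, so they describe the values it was chosen for and carry no test. The shares also rest on its full exon length of 5135 bases, most of which Nr1i3 overlaps. In CPM, without that scale, the ratio of Tomm40l to Tomm40 was 1.35 to 1.51 in WT striatum and 0.399 to 0.471 in cKO striatum. In cerebellum it was 0.969 to 1.10 in WT and 1.31 to 1.42 in cKO, so the change of rank there rested on the scale.

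**Figure D2:**
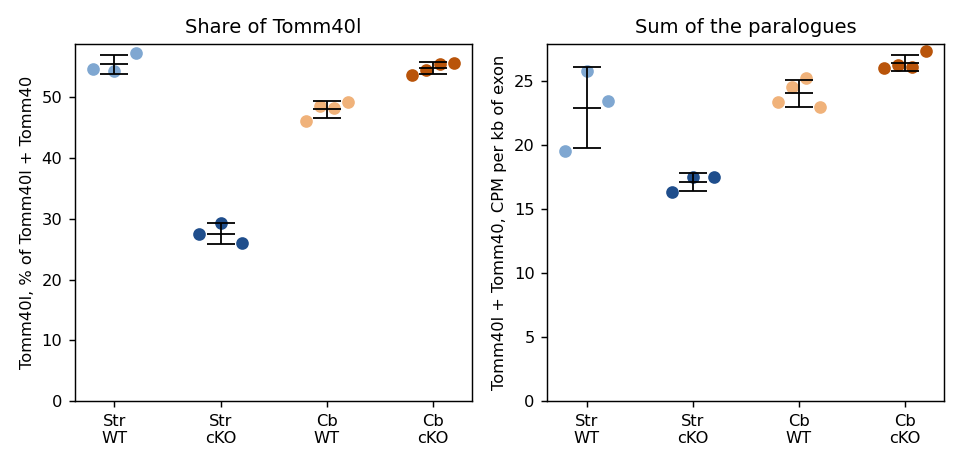
Left, Tomm40l as a percentage of Tomm40l plus Tomm40, both in CPM per kb of exon. Right, their sum in CPM per kb, with points for libraries and black marks for mean and SD in each tissue and genotype. The share of Tomm40l is 25.9 to 29.3% in cKO striatum and 46.0 to 57.1% in the other groups, and the sum is lowest in cKO striatum (16.3 to 17.5 CPM per kb).

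Among the 9 members other than Tomm40l, none was called in striatum by edgeR at an adjusted p under 0.05, where 0.384% of 14080 genes were called. At an unadjusted p under 0.05 there were 2, Tomm40 and Timm50, and DESeq2 and limma-voom also called 0, with 0 and 3 at an unadjusted p under 0.05. Their median log2 fold change was 0.27, against 0.0024 for all genes tested, and it was 0.13 without WT replicate 1, against 0.0054. In cerebellum 0 of the 9 were called, where 7.59% of 14775 genes were called. There, 2 had an unadjusted p under 0.05 with each of edgeR, DESeq2 and limma-voom, each of which called 0, and the median log2 fold change was −0.0042, against 0.0044 for all genes. For the difference between the tissues' changes 0 of the 9 were called, where 0.39% of 15401 genes were called, and 3 had an unadjusted p under 0.05 with each of the 3 tools. By level, 5 of the 9 had every striatal cKO library above every WT library and none had the reverse, where the genotypes did not overlap for 15.0% of all genes in either direction. In cerebellum 1 of the 9, Tomm34, had no overlap, where 14.4% of all genes had none.

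**Figure D3:**
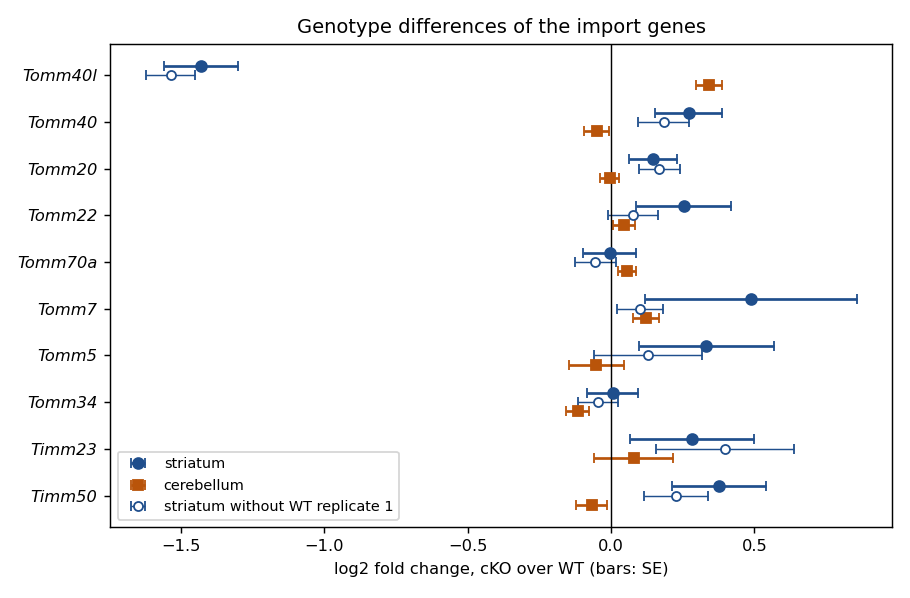
Log2 fold change of cKO over WT (x axis, bars are SE) for the 10 genes, in striatum with all libraries (filled circles) and without WT replicate 1 (open circles), and in cerebellum (squares). Tomm40l lies at −1.43 and 0.34, and the other cerebellar values lie between −0.12 and 0.12, while the striatal values of Tomm7 and Tomm22 shift towards 0 without that replicate.

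The receptors showed small differences. Tomm20, which encodes the receptor for cleavable targeting signals, was at 547, 544 and 514 CPM in WT striatum and at 570, 604 and 606 CPM in cKO striatum. All cKO values were above all WT values. The log2 fold change was 0.15 ± 0.083 (edgeR adjusted p = 0.76), and 0.17 ± 0.071 without WT replicate 1 (adjusted p = 0.543). In cerebellum Tomm20 was at 216, 211, 215 and 216 CPM in WT and at 202, 210, 213 and 223 CPM in cKO, with overlap. Tomm70a, which encodes the receptor for carriers and other precursors with internal signals, was at 645, 715 and 739 CPM in WT striatum and at 682, 678 and 737 CPM in cKO striatum. The ranges overlapped, and the log2 fold change was −0.01 ± 0.091, and −0.05 ± 0.073 without WT replicate 1. In cerebellum it was at 204, 190, 199 and 194 CPM in WT and at 199, 208, 198 and 206 CPM in cKO, again with overlap (0.06 ± 0.032, edgeR adjusted p = 0.326). Tomm34, which encodes a cytosolic cochaperone of precursors, was at 43.6, 46.3, 45.1 and 45.2 CPM in WT cerebellum and at 41.1, 41.1, 41.8 and 41.0 CPM in cKO cerebellum. The cKO libraries were all lower and close together, and the difference did not pass (−0.12 ± 0.040, edgeR adjusted p = 0.0943). In striatum Tomm34 ranged from 79.9 to 92.6 CPM in WT and from 84.2 to 90.3 CPM in cKO, with a log2 fold change of 0.01 ± 0.089, and −0.04 ± 0.070 without WT replicate 1.

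For the central organiser and the small subunits, striatal WT replicate 1 was the lowest of the 6 striatal libraries. Tomm22 was at 32.6, 54.4 and 46.8 CPM in WT striatum and at 51.9, 55.6 and 52.4 CPM in cKO striatum. The second WT value lay within the cKO range. The log2 fold change was 0.25 ± 0.17 with that library and 0.08 ± 0.088 without it. Tomm7 was at 11.1, 39.2 and 39.6 CPM in WT striatum and at 43.2, 43.3 and 40.0 CPM in cKO striatum. Here the first WT library had 128 counts, below every other library of the study in CPM. The log2 fold change was 0.49 ± 0.37 with it and 0.10 ± 0.081 without it. Tomm5, a low gene, was at 3.02, 5.04 and 5.28 CPM in WT striatum and at 6.03, 5.89 and 4.94 CPM in cKO striatum, and the genotypes overlapped. Its log2 fold change was 0.33 ± 0.24 with that library and 0.13 ± 0.19 without it. In cerebellum Tomm22 ranged from 53.9 to 57.8 CPM and Tomm5 from 5.93 to 7.46 CPM over both genotypes, with overlap. Tomm7 ranged from 38.4 to 42.5 CPM in WT cerebellum and from 41.9 to 43.6 CPM in cKO cerebellum (0.12 ± 0.045, edgeR adjusted p = 0.117).

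At the inner membrane, Timm50, which encodes the receptor of the TIM23 channel, was at 11.9, 17.7 and 16.8 CPM in WT striatum and at 21.9, 18.7 and 19.9 CPM in cKO striatum. All cKO values were above all WT values. The log2 fold change was 0.38 ± 0.16 (edgeR adjusted p = 0.679), and 0.23 ± 0.11 without WT replicate 1. In cerebellum Timm50 was at 31.6, 31.3, 36.2 and 30.7 CPM in WT and at 29.8, 31.4, 30.6 and 31.0 CPM in cKO, with overlap. The cerebellar minus the striatal change of Timm50 was −0.46 ± 0.15 (edgeR adjusted p = 0.243), and −0.57 to −0.30 when 1 library was left out at a time. Timm23, the channel itself, was listed at 2.36 to 2.94 CPM in WT striatum and 3.02 to 3.23 CPM in cKO striatum, and at 2.93 to 4.00 CPM across all cerebellar libraries. Neither of its log2 fold changes passed (striatum 0.28 ± 0.22, cerebellum 0.08 ± 0.14, edgeR adjusted p = 0.783 and 0.799), and the striatal value was 0.40 ± 0.24 without WT replicate 1.

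The WT tissues were compared for the 9 members that were listed for their function, though with earlier results of these data known. In WT striatum against WT cerebellum, 6 of the 9 were called by edgeR, 3 higher and 3 lower in striatum, where 64.2% of 15031 genes were called. Tomm70a was higher by 1.84 ± 0.069 on the log2 scale (edgeR adjusted p = 1.55e-08), Tomm20 by 1.32 ± 0.063 (adjusted p = 6.61e-08) and Tomm34 by 0.95 ± 0.068 (adjusted p = 1.33e-06). The receptors and the cytosolic cochaperone were thus higher in WT striatum. Timm50 had a striatal minus cerebellar log2 difference of −1.06 ± 0.13 (edgeR adjusted p = 6.94e-05), Tomm5 of −0.61 ± 0.19 (adjusted p = 0.0161) and Tomm40 of −0.28 ± 0.096 (adjusted p = 0.0258). The call of Tomm5 was lost with a replicate block (−0.64, adjusted p = 0.0561), which matched replicate numbers across the tissues, a pairing that is not established. That of Tomm40 was lost without striatal WT replicate 3 or cerebellar WT replicate 1, 2 or 3 (adjusted p = 0.0591 to 0.0735). Tomm40l had a difference of 0.14 ± 0.095, and 0.24 without striatal WT replicate 1, given without a test because its selection used these WT values. Tomm22, Tomm7 and Timm23 did not pass, with differences of −0.31, −0.41 and −0.37, and Tomm22 passed without striatal WT replicate 2 (−0.47, adjusted p = 0.0118). Leaving out 1 library at a time gave −0.47 to −0.13 for Tomm22, −0.65 to −0.02 for Tomm7 and −0.49 to −0.27 for Timm23. Striatal WT replicate 1, the library that stood apart, was the lowest WT striatal library for Tomm22 and for Tomm7, where it had 11.1 CPM against 39.2 and 39.6.

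The genes were ordered by mean CPM per kb of exon, a scale that rests on the full annotated exon length of each gene. For Tomm40l most of that length overlaps Nr1i3, so its place in the order is uncertain. Tomm20 led in WT striatum with 109 ± 3.69, followed by Tomm70a with 71.6 ± 4.999 (SD, n = 3). Next came Tomm34 with 28.6 ± 2.13, Tomm22 with 26.99 ± 6.71 and Tomm7 with 26.6 ± 14.5, which lay within each other's spread. Tomm40l stood at 12.7 ± 1.79 and Tomm40 at 10.3 ± 1.45, with Tomm40l the higher in each of the 3 libraries, then Timm50 at 5.77, Tomm5 at 5.13 and Timm23 at 1.43. In WT cerebellum the order of the leading genes was Tomm20 at 43.7 ± 0.450, Tomm7 at 35.3 ± 1.69, Tomm22 at 33.5 ± 1.03 and Tomm70a at 20.1 ± 0.612 (SD, n = 4). Tomm40 at 12.5 ± 0.601, Timm50 at 12.1 ± 0.942 and Tomm40l at 11.5 ± 0.614 were neighbours. Timm50 lay within the spread of both, and on this scale Tomm40l was below Tomm40 in each of the 4 libraries. In CPM it was below Tomm40 in replicate 1 alone. In cKO striatum Tomm40l stood at 4.71 ± 0.353 CPM per kb, below Timm50 at 7.51 ± 0.597 and Tomm5 at 6.47 ± 0.681 (SD, n = 3). In cKO cerebellum it stood at 14.5 ± 0.521, above Tomm40 at 11.98 ± 0.233 (SD, n = 4).

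The other genes of the import route were read from the same fits. They were 35 genes listed for their function with earlier results known, from the remaining small TOM subunit to the processing peptidases. In striatum 0 of the 32 tested were called by edgeR, by DESeq2 or by limma-voom, and 0, 0 and 1 had an unadjusted p under 0.05. The log2 fold change was positive for 29 of the 32, with a median of 0.13. Without WT replicate 1, which was the lowest striatal library for 26 of them, it was positive for 21 of 33 with a median of 0.03. None of the core subunits was called. Hspa9, the chaperone of the import motor, averaged 250 ± 8.80 CPM in the WT libraries and 274 ± 10.05 CPM in the cKO libraries (SD, n = 3), with a log2 fold change of 0.13 ± 0.080. Timm17a, the partner of TIM23, had 0.29 ± 0.19, and Timm44, which tethers the motor, had 0.18 ± 0.11. Samm50, the core of the outer membrane barrel assembly machine, had 0.11 ± 0.11, and Timm22, the carrier translocase, had 0.07 ± 0.14. Without WT replicate 1 these log2 fold changes were 0.16 for Hspa9, 0.08 for Timm17a, 0.09 for Timm44, 0.02 for Samm50 and −0.04 for Timm22.

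In cerebellum 2 of 33 other import genes were called by edgeR, a share no higher than the 7.59% of all genes called there. Mtx3, which encodes a metaxin of the outer membrane assembly machinery, rose by 0.18 ± 0.037 on the log2 scale (edgeR adjusted p = 0.006), with means of 110 ± 5.45 CPM (WT) and 124 ± 2.44 CPM (cKO; SD, n = 4 each). Oxa1l, which encodes the insertase that places proteins into the inner membrane from the matrix side, fell, with a log2 fold change of −0.20 ± 0.045 (edgeR adjusted p = 0.0104) and means of 47.7 ± 1.95 CPM (WT) and 41.2 ± 1.22 CPM (cKO; SD, n = 4 each). The genotypes did not overlap for either gene. Neither call was kept when all 14 libraries were fitted in 1 model (adjusted p = 0.288 and 0.114). Hspa9 had 0.12 ± 0.036 (edgeR adjusted p = 0.0561, and 0.0405 with the replicate block, which passed) and Samm50 had 0.08 ± 0.035 (adjusted p = 0.194), with every cKO library above every WT library for both. Timm44, Timm17a and Timm22 had 0.06, 0.04 and −0.0014. The median over the 33 was 0.03. For the difference between the tissues' changes 0 of 33 were called by edgeR, DESeq2 or limma-voom, and 0, 0 and 1 had an unadjusted p under 0.05. Between the WT tissues 12 of 33 were called, 3 higher and 9 lower in striatum, and 17 of 33 without striatal WT replicate 1, 9 higher and 8 lower, where 64.2% of all genes were called with all libraries.

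**Figure D4:**
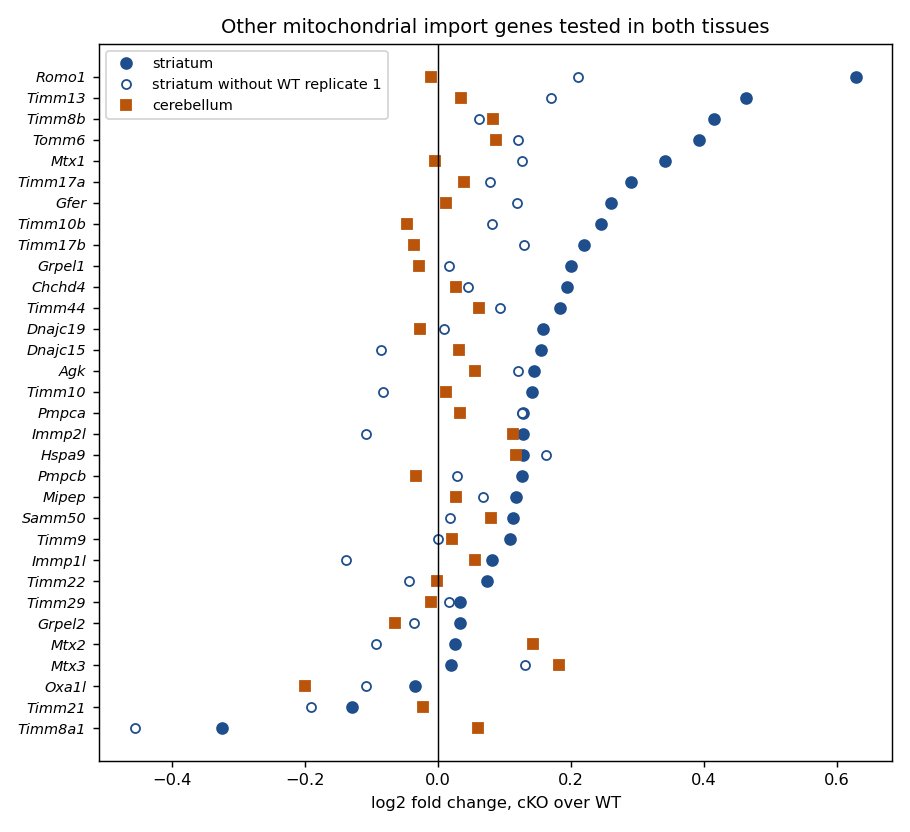
Log2 fold change of cKO over WT (x axis) for the other import genes tested in both tissues, ordered by their value in striatum with all libraries (filled circles), with striatum without WT replicate 1 (open circles) and cerebellum (squares). Most filled circles lie above 0 with a median of 0.13, the open circles centre near 0 with a median of 0.03, and Mtx3 (0.18) and Oxa1l (−0.20) are the called genes in cerebellum.

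The porins Vdac1, Vdac2 and Vdac3, outer membrane barrels like TOM40 that pass metabolites, gave a comparison outside protein import. None was called by edgeR in striatum (log2 fold changes of 0.15, 0.18 and 0.21) or cerebellum (0.07, 0.06 and −0.04). Without WT replicate 1 the striatal values were 0.06, 0.09 and −0.0014. DESeq2 and limma-voom also called 0, and the only unadjusted p under 0.05 was 1 in cerebellum with DESeq2. In striatum Vdac2 averaged 127 ± 16.7 CPM in the WT libraries and 145 ± 3.40 CPM in the cKO libraries (SD, n = 3).

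Several genes beside Tomm40l on chromosome 1 were read from the same fits. Adamts4, a secreted protease expressed by oligodendrocytes, was at 27.4 to 46.6 CPM in WT against 18.2 to 23.8 CPM in cKO striatum, without overlap and without passing (−0.84 ± 0.20, edgeR adjusted p = 0.197). Without WT replicate 1 its log2 fold change was −0.61 ± 0.14. Apoa2, an apolipoprotein gene, was tested in cerebellum alone, where it was at 0.632 to 1.03 CPM in WT against 0.0939 to 0.523 CPM in cKO (−1.03 ± 0.35, edgeR adjusted p = 0.087). Sdhc, Pcp4l1 and Fcer1g had striatal log2 fold changes of 0.25, −0.01 and 0.15 and cerebellar ones of 0.03, 0.11 and 0.15, none of them called. Without WT replicate 1 the striatal values were 0.07, −0.18 and −0.14. The antisense neighbour Nr1i3 was too low to be tested within a tissue, at 0 to 0.173 CPM in striatum and 0.269 to 0.632 CPM in cerebellum.

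Genes were ranked by how closely their levels followed Tomm40l over the 14 libraries, as Pearson's r of log2 CPM after each tissue's mean was subtracted, among 13114 genes. All values come from the same libraries, and the measure holds the genotype differences of both tissues. The highest were Chrdl1, a secreted antagonist of bone morphogenetic proteins (r = 0.936), Smarcc2, a chromatin remodelling subunit (r = 0.898), and Efhd1, a calcium-binding mitochondrial protein (r = 0.891). Chrdl1 was at 15.4 to 18.6 CPM in WT against 8.21 to 12.01 CPM in cKO striatum, and at 11.6 to 13.0 CPM in WT against 13.4 to 14.4 CPM in cKO cerebellum, without overlap in either tissue. Among the lowest were Car10, a carbonic anhydrase relative (r = −0.961), and Rasa4, a Ras GTPase-activating protein (r = −0.884). Car10 was at 5.28 to 5.70 CPM in WT against 8.55 to 9.30 CPM in cKO striatum. In cerebellum Car10 was at 162.0 to 184.9 CPM in WT and 148.9 to 162.3 CPM in cKO, with overlap. These genes were picked for following or opposing Tomm40l, so their genotype differences come with the pick and carry no test. Of the other members, Tomm20 had r = −0.757, Tomm40 had r = −0.623 and Timm50 had r = −0.589, and the remaining values lay between −0.529 and 0.159.

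Promoters of 250 bases before to 50 bases after the start were found for 8 of the 10 members in RefSeq (GRCm38.p6), 9 promoters in all. Tomm40l and Tomm7 had no entry. On either strand the letters TNNGGGCA, a core of the THAP1 site, occurred in 0 of the 9, and in 13.9% of 32851 promoters of the same length. The YY1 core CCATNTT occurred in 2 of the 9, that of Timm50 and 1 of those of Tomm34, and in 16.1% of all promoters. The motif of NRF1, a factor of nuclear genes for mitochondrial proteins, occurred in 1, that of Tomm20, and in 4.6% of all promoters.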

How the data were processed

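The authors deposited 1 table of raw counts per library, with 23337 gene symbols. Per the submitters' processing notes, the tools were STAR, cutadapt 1.13, HTSeq 0.6.1p1 and DESeq2, with genome build mm10. The sources used here do not give the counting annotation or strand setting. The 10 members and all gene lists were chosen with earlier results of these data known, so no p is adjusted over a list.

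Counts were fitted with edgeR 4.0.16 (R 4.3.3), using TMM factors, filterByExpr (minimum count 10, minimum total 15) and the robust quasi-likelihood test. P-values were adjusted by Benjamini-Hochberg over all genes tested, and a gene was called at an adjusted p under 0.05. Genotypes were compared within a tissue, WT tissues with each other, and the tissues' changes in 1 model of 14 libraries. Positive genotype changes mean higher in cKO. SE was obtained as log2 fold change over the square root of F. The fit was tested on simulated data.

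Alternatives were DESeq2 1.42.0 and its size factors, limma-voom (limma 3.58.1), upper-quartile factors, no filter, a mean of at least 1 CPM, a replicate block, all libraries in 1 model, and leaving out each library. Same-numbered WT and cKO libraries of a tissue deviated together in every pair (r = 0.112 to 0.217 in striatum, 0.189 to 0.355 in cerebellum). The numbers were therefore taken as pairs within a tissue, a pairing read from the data. Differently numbered libraries gave r = −0.191 to 0.108 in striatum and −0.545 to 0.47 in cerebellum. In cerebellum the deviations thus do not single out these pairs, and the pairing is not established. Between WT tissues the same-numbered libraries did not deviate together in every pair (r = −0.136 to 0.259). The replicate block of the WT comparison still matched numbers across the tissues, so calls lost under it rest on a pairing that is not established.

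The naming rule took the members, Thap1, the porins, core subunits and called genes of the other import list, the nearest neighbours of Tomm40l, and the 3 genes most and least like it (prior count 2, mean of at least 1 CPM). Not every gene so chosen is reported here. Coordinates follow GENCODE vM21 (GRCm38, which is mm10). Sequence comparisons used Biopython 1.88.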

Additional observations from a re-analysis of the deposited data

Results flagged for a closer look

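Gaps between 1 library and the rest of its group were checked for the 10 members in the groups of 4, 20 groups in all, of which chance flags about 1. Tomm20 had a lowest WT cerebellar library, replicate 2, at 211 CPM against 215 to 216 in the other 3. Tomm34 had a highest cKO cerebellar library, replicate 3, at 41.8 CPM against 41.0 to 41.1. Timm50 had a highest WT cerebellar library, replicate 3, at 36.2 CPM against 30.7 to 31.6. Tomm40l was lower in every cKO than in every WT library in striatum, and higher in cerebellum. Its cerebellar minus striatal log2 fold change was 1.76, a difference that was not tested because the gene was chosen for it.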

How the results depend on the processing

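The log2 fold changes of Tomm40l kept their sign under each alternative run. Leaving out 1 library at a time gave −1.54 to −1.35 in striatum, 0.31 to 0.37 in cerebellum and 1.68 to 1.87 for the difference between tissues. The same omissions gave 0 to 1 calls among the other 9 members for that difference. With all 14 libraries in 1 model, 0 other import genes were called in cerebellum, where the pooled spread of the tissues was used. The replicate block ended the calls of Tomm5 (−0.64), Hspa9 (adjusted p = 0.128) and Immp1l (adjusted p = 0.0587) between WT tissues, gave a call of Hspa9 in cerebellum (adjusted p = 0.0405) and cut the striatal myelin calls from 6 to 1. It changed no other call of a member, porin or other import gene, but the calls over all genes fell from 54 to 15 in striatum and from 60 to 13 for the difference between tissues. Striatal calls over all genes numbered 153 with DESeq2, 186 with limma-voom, 376 in 1 model of all libraries and 3 to 122 without 1 library. Cerebellar calls numbered 1121, against 251 in 1 model and 739 to 1165 without 1 library. Calls for the difference between tissues numbered 228 with DESeq2, 102 with limma-voom and 17 to 193 without 1 library. Thap1 passed in striatum under 5 alternatives (adjusted p down to 2.91e-05) and did not pass in cerebellum under 11 (up to 0.353). Of 677 values of single genes under alternatives, 648 kept their direction and side of the threshold or stayed uncalled, 10 gained a call and 19 lost it. Among the uncalled, 13 changed sign. Low counts limit Tomm5 and Timm23 most.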
